A study of Mus musculus with 7 samples.

Results

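The genes described here run the cell cycle and the copying of DNA, and they were followed in the livers of young mice that had been exposed to ethanol before birth. The list holds 36 genes, from the cyclins that open the cycle to the proteins that divide the cell, and its members were taken by gene symbol. A named probe was found for 34 of them, out of 19057 genes named on the array, and 70 probes in all. Mki67 and Ccnb1 had no named probe and were not analysed here. Liver RNA from 7 male C57BL/6J mice, a common inbred strain, was hybridised to Illumina BeadArrays at postnatal day 28, with 1 array per sample. The ethanol group (n = 3) was the offspring of dams given free access to drink with 10% ethanol by volume until gestational day 8.5, counted from fertilization, and the control group (n = 4) was set against it. The treatment text was the same on samples of both groups, so the group was read from the title, and what the control dams drank was not given in the sources used here. The labels do not say whether the replicates came from separate litters, and a p-value here speaks only of the spread among the 7 livers.

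A dividing cell passes from a growth phase into S phase, where the DNA is copied once, and then through a second gap into mitosis. D-type and E-type cyclins with their kinases release E2F transcription factors from the retinoblastoma protein and its relatives, and E2F then switches on the licensing helicase, the nucleotide enzymes and PCNA. Later in the cycle the B-MYB and FOXM1 complexes switch on the mitotic kinases, the spindle motors and the chromosome proteins. Hepatocytes divide often in the growing liver of young rodents and seldom in the adult, and blood cells inside the organ divide as well. In whole liver RNA, fewer dividing cells and less of a transcript per dividing cell cannot be told apart.

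Promoters of 5 members are shown first, since TTTGAA stood in most promoters of mitotic members and in few of S phase members. The sequences are RefSeq windows on GRCm38.p6, from 250 bases before to 50 bases after the gene's start, read 5′ to 3′ on the gene's own strand. Capitals mark TTTGAA (the letters of the cell cycle homology region, a site known in mitotic promoters), CCAAT (the box bound by NF-Y) and TTTGGCGC (a form of the E2F site), each searched on both strands, so that a site on the other strand reads as its reverse complement. The marked sites do not overlap in the windows shown. Rrm2 is shown as the gene with the greatest distance between the groups, Cdc20, Plk1 and Cenpa as mitotic genes that varied between animals, and Mcm5 as a licensing gene.
Rrm2, chr12:24708004-24708303, plus strand: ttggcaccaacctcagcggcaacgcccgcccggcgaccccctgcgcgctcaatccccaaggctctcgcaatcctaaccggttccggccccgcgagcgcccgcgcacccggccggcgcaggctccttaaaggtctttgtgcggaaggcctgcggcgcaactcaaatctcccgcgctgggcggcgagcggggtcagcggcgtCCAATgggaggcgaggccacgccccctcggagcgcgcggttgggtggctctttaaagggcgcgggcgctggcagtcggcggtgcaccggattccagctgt
Cdc20, chr4:118437294-118437593, minus strand: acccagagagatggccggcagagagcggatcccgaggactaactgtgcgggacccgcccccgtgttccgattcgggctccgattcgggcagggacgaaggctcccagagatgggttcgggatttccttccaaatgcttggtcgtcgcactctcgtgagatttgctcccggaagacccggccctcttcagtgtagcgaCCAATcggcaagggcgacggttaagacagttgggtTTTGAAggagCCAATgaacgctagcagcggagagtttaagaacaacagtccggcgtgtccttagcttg
Plk1, chr7:122159185-122159484, plus strand: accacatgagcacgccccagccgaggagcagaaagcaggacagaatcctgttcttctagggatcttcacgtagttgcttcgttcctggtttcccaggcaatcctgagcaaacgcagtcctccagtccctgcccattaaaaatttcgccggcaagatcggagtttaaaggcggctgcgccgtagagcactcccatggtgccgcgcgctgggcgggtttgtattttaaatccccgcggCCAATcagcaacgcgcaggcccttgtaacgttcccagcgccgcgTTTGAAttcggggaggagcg
Cenpa, chr5:30666636-30666935, plus strand: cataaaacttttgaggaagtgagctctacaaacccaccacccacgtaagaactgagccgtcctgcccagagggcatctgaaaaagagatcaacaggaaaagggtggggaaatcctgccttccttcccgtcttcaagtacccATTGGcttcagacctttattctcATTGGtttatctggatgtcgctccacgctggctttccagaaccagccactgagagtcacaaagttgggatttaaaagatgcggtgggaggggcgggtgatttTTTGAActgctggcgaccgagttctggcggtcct
Mcm5, chr8:75109259-75109558, plus strand: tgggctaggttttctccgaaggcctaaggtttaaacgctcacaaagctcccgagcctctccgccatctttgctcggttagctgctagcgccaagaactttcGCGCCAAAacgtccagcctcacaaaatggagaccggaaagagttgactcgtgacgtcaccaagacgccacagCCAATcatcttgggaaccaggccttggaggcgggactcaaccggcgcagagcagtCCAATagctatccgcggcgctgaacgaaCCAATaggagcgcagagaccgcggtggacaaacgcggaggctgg
TTTGAA stood in the window of all 3 mitotic genes shown and in neither of the S phase genes. Mcm5 held the E2F form and 3 CCAAT boxes, and Rrm2 held 1 CCAAT box.

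Windows were at hand for 28 of the 36 members. TTTGAA was in 14 of these 28, against 20.2% of the 27025 genes with a window. By role, 11 of 14 members of the mitotic kinase, spindle and chromosome groups held it (Aurka, Bub1b, Cdc20, Cenpa, Kif11, Mki67, Plk1, Prc1, Racgap1, Top2a and Ube2c), and of the 10 S phase members only Mcm2 did. CCAAT was in 23 of 28 members (82.1%), against 41.1% of all genes, and was about as common in both phases (12 of 14 mitotic and 8 of 10 S phase members). TTTGGCGC was in 3 of 28 (10.7%, Mcm3, Mcm5 and Mcm6), against 0.585% of all genes. The motifs and the windows printed were chosen with the expression values known, and a match describes letters and not binding.

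Among the 34 members with a probe, 24 were above background on all 7 arrays, 4 on some of them (Ccne1, Ccne2, Mcm3 and Pcna) and 6 on none (Ccna2, Ccnb2, Bub1, Ube2c, Kif20a and Racgap1). Values are deposited intensities on a linear scale, and a probe counted as above background where it passed a limit of 21.3 to 26.9 units, set for each array from its own negative values. Each gene was read on its brightest probe. Levels of different probes are not compared with each other. Of the markers that define liver tissue, 7 of 8 hepatocyte markers were above background on all 7 arrays, the exception being Tat.

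The comparison of ethanol with control livers asked whether early exposure in the womb left a difference in these genes at postnatal day 28. No member passed the test. Of the 28 members tested, 0 had an adjusted p under 0.05 in limma with Benjamini-Hochberg adjustment over 23829 probes, where 0.0314% of all genes tested did. In the same test 1 member, Rrm2, had an unadjusted p under 0.05, where 9.12% of genes tested did (4.22% higher and 4.90% lower in ethanol livers). All 70 member probes were searched as well, and of the 50 that were tested 3 had an unadjusted p under 0.05 (2 for Rrm2 and 1 for Ccnd1) against 8.80% of all probes, and 0 had an adjusted p under 0.05 against 0.0210%. The log2 fold change, ethanol minus control, was above 0 in 16 members and below 0 in 12, where 49.6% of all genes tested were above 0. Its median was 0.02, beside -0.001 over all 12749 genes tested. This split turned with single animals: 5 of 28 members were above 0 without ethanol 2 (median -0.112) and 21 of 28 without ethanol 1 (median 0.108).

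**Figure D1:**
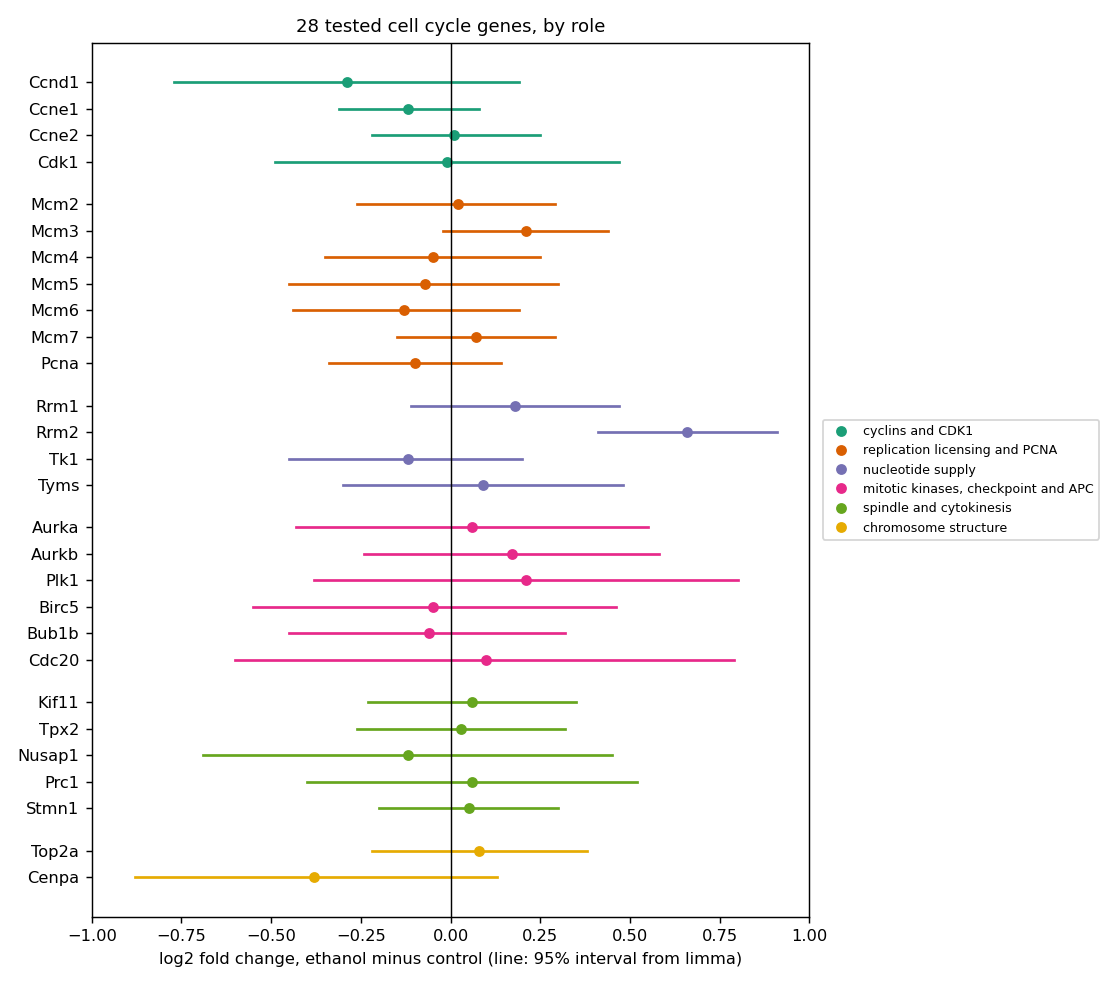
Log2 fold change of the 28 tested members, ethanol minus control, with the 95% interval from limma as a line and colour for role. Rrm2, at 0.66, is the one interval that lies wholly to the right of 0, and every interval stays inside -1 to 1.

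The fold changes ran from -0.38 for Cenpa to 0.66 for Rrm2, and 26 of the 28 lay within 0.3 of 0. Standard errors were 0.09 to 0.31, and the 95% intervals reached 0.20 to 0.69 to each side, with a median of 0.32. All 28 intervals lay inside a log2 change of 1 in either direction on this scale, which carries an added offset of 50 units and so understates the change of dim probes. The lowest adjusted p was 0.166 (Rrm2) and the next was 0.607 (Mcm3). By role the medians were -0.06 for 4 cyclins and CDK1, -0.05 for 7 licensing genes with PCNA, 0.13 for 4 nucleotide genes, 0.08 for 6 mitotic kinase and checkpoint genes, 0.05 for 5 spindle genes and -0.15 for 2 chromosome genes. Without ethanol 2 all 6 of these medians were below 0, with 0 of the 6 mitotic kinase and checkpoint genes above 0. Single fold changes also moved with the animals used, for example from -0.31 to -0.03 for Tk1, 0.09 to 0.29 for Rrm1, -0.15 to -0.02 for Pcna and -0.17 to -0.06 for Ccne1 with each animal left out in turn.

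Ccnd1 encodes cyclin D1, which couples growth signals to entry into the cycle and is induced early in regenerating liver. Its intensity was 2940, 1620 and 1736 in ethanol livers, against 1740, 2696, 2776 and 3002 in control livers. Ethanol 2 and 3 and control 1 were low, and the groups overlapped. The log2 fold change was -0.29 ± 0.22 (SE), with an adjusted p of 0.752 in limma. It was -0.56 without ethanol 1, -0.46 without control 1 and -0.11 without ethanol 2. The second probe gave -0.20. The third probe gave 260, 152 and 87.8 in ethanol livers, against 242, 364, 271 and 357 in control livers. Its values overlapped through ethanol 1 and control 1. That probe had a log2 fold change of -0.73 ± 0.21 (SE) with an unadjusted p of 0.00536 and an adjusted p of 0.427 in limma, so the probes of Ccnd1 differed in size and shared a sign.

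Ccne1, which encodes cyclin E1 of the G1/S transition, was above background in 1 of 3 ethanol and 4 of 4 control livers. Its values were 30.9, 23.2 and 17.1 in ethanol livers, against 25.8, 40.03, 30.7 and 30.1 in control livers. The log2 fold change was -0.12 ± 0.09 (SE; limma adjusted p = 0.755), and the groups overlapped. Ccne2, its close relative, was above background on 1 array, with a log2 fold change of 0.01. Cdk1, the kinase that drives entry into mitosis, had 292, 531 and 293 in ethanol livers, against 556, 333, 319 and 289 in control livers. Ethanol 2 and control 1 stood above the rest of their groups, and the log2 fold change was -0.01 ± 0.22 (SE). The A and B cyclins Ccna2 and Ccnb2 had no value above background on any array.

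The MCM2 to MCM7 proteins form the ring-shaped helicase that is loaded on origins before S phase and unwinds DNA during it. Mcm3 had 32.2, 49.8 and 48.5 in ethanol livers, against 27.2, 36.6, 14.95 and 34.5 in control livers. Ethanol 1 lay inside the control range and the other two above it. Its log2 fold change of 0.21 ± 0.10 (SE) was the most positive of the licensing genes, with an adjusted p of 0.607 in limma and above background on 6 of 7 arrays. Mcm6 had 357, 627 and 435 in ethanol livers, against 511, 493, 566 and 469 in control livers. The ethanol values lay on both sides of the control values, and the log2 fold change was -0.13 ± 0.14 (SE; limma adjusted p = 0.846). The other Mcm6 probes above background gave 0.03 and -0.03.

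Mcm4 had 562, 825 and 869 in ethanol livers, against 747, 821, 847 and 686 in control livers, a log2 fold change of -0.05. For Mcm2, Mcm5 and Mcm7 it was 0.02, -0.07 and 0.07. Ethanol 1 was the lowest ethanol animal for all 5 licensing genes above background on all arrays (Mcm2, Mcm4, Mcm5, Mcm6 and Mcm7). Pcna, the sliding clamp that holds DNA polymerase on its template, had 18.3, 36.3 and 32.6 in ethanol livers, against 35.5, 27.3, 54.7 and 28.2 in control livers. The groups overlapped (log2 fold change -0.10 ± 0.11, SE; limma adjusted p = 0.837), and the values lay near the background limit.

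Rrm2 encodes the small subunit of ribonucleotide reductase, the enzyme that makes the deoxynucleotides for DNA synthesis and that is limiting in S phase. Its intensity was 258, 248 and 272 in ethanol livers, against 165, 157, 137 and 102 in control livers. Every ethanol liver lay above every control liver, which held for 1 of the 28 members tested in this direction and for 0 in the other, where 4.22% of all genes tested lay wholly higher and 4.63% wholly lower. The means were 259 ± 12.1 in ethanol livers (SD, n = 3) and 140.2 ± 28.4 in control livers (SD, n = 4). The log2 fold change was 0.66 ± 0.11 (SE; 95% interval 0.41 to 0.91), with an unadjusted p of 1.26e-04 and an adjusted p of 0.166 in limma.

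The second Rrm2 probe had 157, 162 and 153 in ethanol livers, against 146, 137, 112 and 102 in control livers. It too did not overlap, with a smaller log2 fold change of 0.23 ± 0.10 (SE; limma adjusted p = 0.545). The third was below background. Over the alternative settings and with each animal left out in turn, the adjusted p of the first probe stayed between 0.102 and 0.533. Rrm1, the large subunit of the same enzyme, had 177, 245 and 230.3 in ethanol livers, against 229, 176, 192 and 138 in control livers. Its groups overlapped, and the log2 fold change was 0.18 ± 0.13 (SE; limma adjusted p = 0.746). The second Rrm1 probe, also above background on all 7 arrays, gave 0.04.

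Tk1, a thymidine kinase that salvages thymidine, had 738, 1155 and 736 in ethanol livers, against 1102, 898, 895 and 896 in control livers. Ethanol 2 and control 1 were the high animals, and the log2 fold change was -0.12 ± 0.15 (SE; limma adjusted p = 0.854). Tyms, which makes thymidylate, had a log2 fold change of 0.09 on its brightest probe and -0.17 on another above background.

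**Figure D2:**
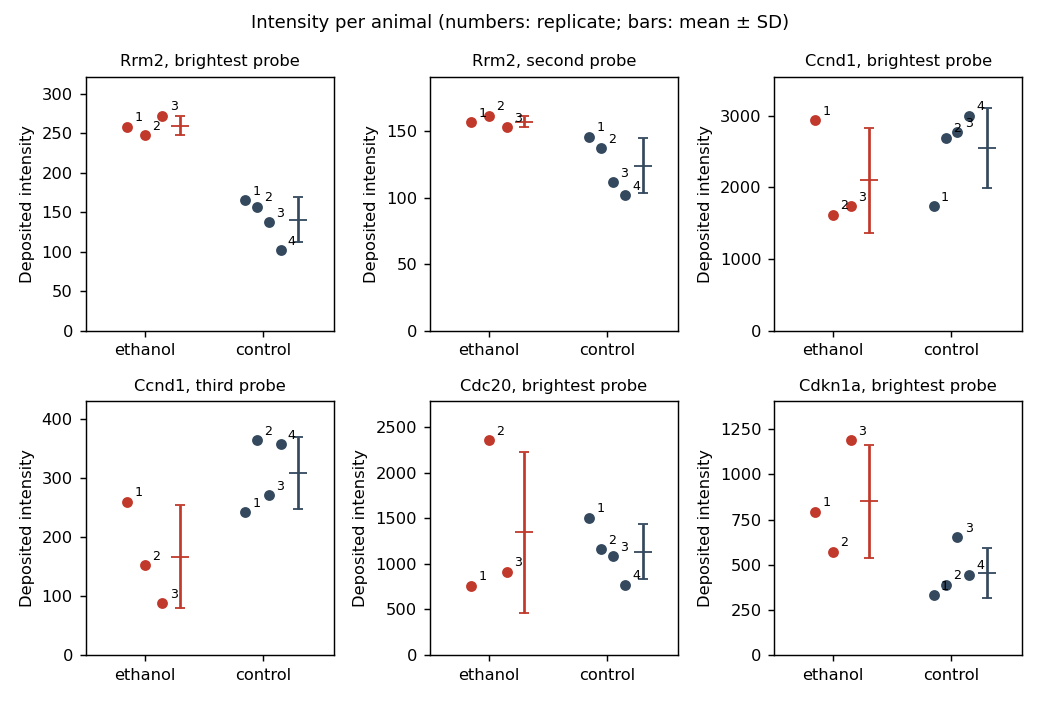
Deposited intensity of each liver for 6 probes, ethanol left of control, with replicate numbers beside the points and bars for mean ± SD (n = 3 ethanol, n = 4 control). Both Rrm2 probes separate the groups, while Cdc20 spreads from 759 to 2357 within the ethanol group and Ccnd1 and Cdkn1a overlap.

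Cdc20 activates the anaphase promoting complex and releases sister chromatids. Its intensity was 759, 2357 and 914 in ethanol livers, against 1508, 1158, 1085 and 771 in control livers. Ethanol 2 stood far above every other liver and ethanol 1 below all of them. The log2 fold change was 0.10 ± 0.31 (SE; limma adjusted p = 0.957), and without ethanol 2 it was -0.36. The other Cdc20 probes gave 0.03, 0.02 and 0.41. Aurkb, the kinase of the chromosomal passenger complex that corrects chromosome attachment, had 84.4, 212 and 147 in ethanol livers, against 170, 109, 98.1 and 105 in control livers. Its log2 fold change was 0.17 ± 0.19 (SE; limma adjusted p = 0.842), with overlapping groups.

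Plk1, a kinase of mitotic entry and exit, had 356, 896 and 535 in ethanol livers, against 624, 551, 483 and 292 in control livers, a log2 fold change of 0.21 ± 0.27 (SE). Aurka, which builds the spindle poles, had a log2 fold change of 0.06. Birc5, the survivin subunit of the passenger complex, had -0.05 and the checkpoint kinase Bub1b had -0.06 on the same scale. All 4 were higher in ethanol 2 than in the other ethanol livers. Further probes had the opposite sign, at 0.12 and 0.09 for Birc5 and 0.03 for Bub1b. Bub1, another checkpoint kinase, and Ube2c, a ubiquitin carrier of the anaphase promoting complex, were below background on every array.

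Prc1 bundles the microtubules of the central spindle. It had 724, 1002 and 762 in ethanol livers, against 1216, 826, 684 and 558 in control livers. Control 1 was its highest liver, the groups overlapped, and the log2 fold change was 0.06 ± 0.21 (SE; limma adjusted p = 0.963). Nusap1, a spindle microtubule protein, had 231, 499 and 266 in ethanol livers, against 565, 377, 293 and 238 in control livers, a log2 fold change of -0.12 ± 0.26 (SE). For the spindle motor Kif11, the spindle assembly factor Tpx2 and the tubulin-binding protein Stmn1 it was 0.06, 0.03 and 0.05. Kif20a, a motor of the midzone, was below background on every array. Racgap1, which helps to place the cleavage furrow, had -7.23, -4.95 and -7.22 in ethanol livers, against -11.6, -7.40, -11.4 and -11.2 in control livers. These values do not overlap, yet all lie below the background limit, so they give no order of levels. The probe was not tested, since it did not exceed its array's median on 3 or more arrays.

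Top2a, the topoisomerase that untangles chromosomes, had 65.2, 130.4 and 81.1 in ethanol livers, against 104, 84.6, 81.6 and 61.8 in control livers. Ethanol 2 was highest and the groups overlapped (log2 fold change 0.08 ± 0.14, SE; limma adjusted p = 0.907). Cenpa, the histone H3 variant that marks centromeres, had 2072, 3659 and 1657 in ethanol livers, against 3873, 3352, 2494 and 2575 in control livers. Ethanol 1 and 3 lay below every control and ethanol 2 between the controls. Its log2 fold change was -0.38 ± 0.23 (SE; limma adjusted p = 0.673), and it was -0.67 without ethanol 2, -0.24 without control 1 and -0.17 without ethanol 3. It was the most negative among the members with all 7 animals, while without ethanol 1, ethanol 3 or control 1 Ccnd1 was more negative.

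Animals of the same group differed from each other in these genes. Among the 24 members above background on all arrays, ethanol 2 was the highest ethanol liver for 21 (87.5%, beside 38.6% of the 7648 genes above background on all arrays). The exceptions were Rrm2 and Mcm4, highest in ethanol 3, and Ccnd1, highest in ethanol 1. Control 1 was the highest control liver for 19 of the 24 (79.2%, beside 26.8%), with Ccnd1, Mcm2, Mcm4, Mcm6 and Mcm7 as exceptions. For 18 members both held, beside 14.3% of all genes. Control 4 was the lowest control for 16 members (66.7%, beside 27.7%). Over all tested probes, ethanol 2 and control 1 also deviated together from their group means (r = 0.305, the highest of the pairs). Ethanol 1 and control 4 came next (r = 0.256). Deviations shared by these animals were thus not confined to the cell cycle genes.

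Set against the average of the controls, the mean log2 level of the 24 members was -0.17, 0.35 and -0.11 in ethanol livers, against 0.24, 0.02, -0.06 and -0.20 in control livers. Over all genes above background the same means lay within 0.01 of 0 in every animal. Quantile normalisation gives every array the same distribution and so holds such means near 0, and they are no test of the members' pattern. The ratio of the highest to the lowest of the 7 livers had a median of 2.14 over the members, from 1.46 to 3.10, beside 1.52 over all genes. These are descriptions of 7 arrays, in which genes share the animal, the RNA and the array.

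**Figure D3:**
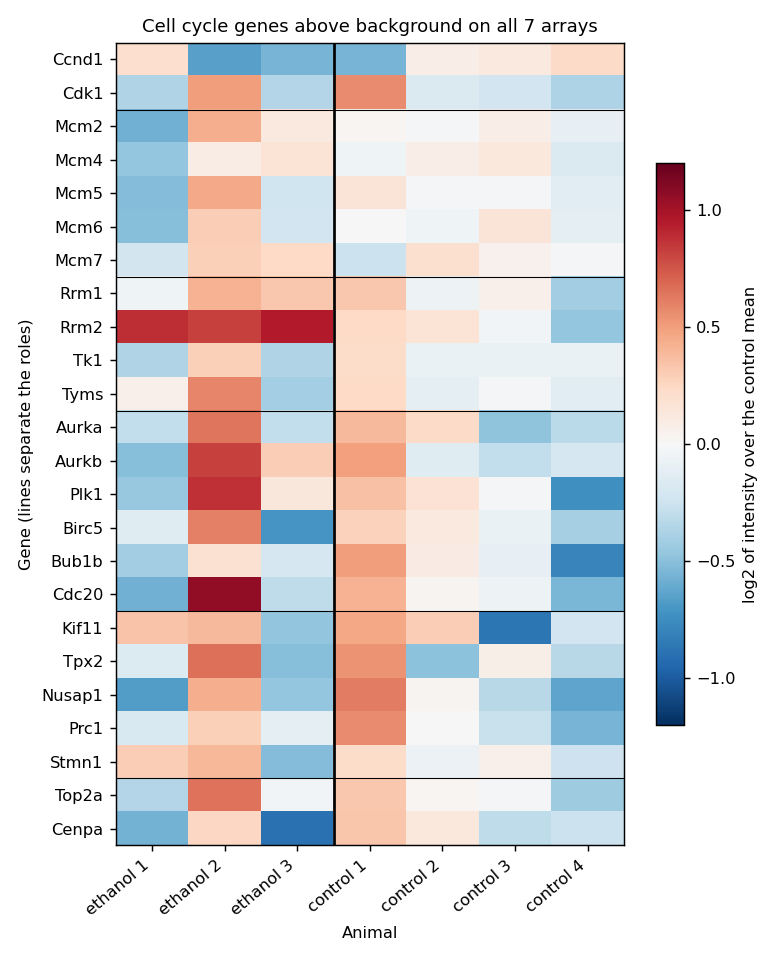
Log2 of deposited intensity over the control mean for the 24 members above background on all 7 arrays, by animal (columns, ethanol left of the black line) and gene (rows, grouped by role). The columns of ethanol 2 and control 1 are mostly red, Ccnd1 runs the other way, and Rrm2 is red in all 3 ethanol livers.

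The pattern was most regular in mitotic genes. For all 14 members of the mitotic kinase, spindle and chromosome groups and Cdk1, on their brightest probes, ethanol 2 was the highest ethanol liver and control 1 the highest control. The highest of all 7 livers was ethanol 2 for 8 of them and control 1 for 6. Not every further probe kept the order of the controls. A dimmer Cdc20 probe was highest in control 3 (109, against 74.3 in control 1), and the second Bub1b probe was lowest in control 1 (32.3). The remaining Cdc20 and Birc5 probes were highest in control 1. Over the 14 members on their brightest probes, the mean log2 level was -0.21, 0.44 and -0.18 in ethanol livers, against 0.38, 0.04, -0.13 and -0.29 in control livers. In the 9 S phase members above background, ethanol 2 was the highest ethanol liver for 7 and control 1 the highest control for 5. Their means were -0.15, 0.31 and 0.05 in ethanol livers, against 0.11, -0.01, 0.02 and -0.12 in control livers. Ccnd1 ran the opposite way, with its lowest ethanol value in ethanol 2 and its lowest control value in control 1. The median ratio of highest to lowest liver was 2.26 in the 10 members with TTTGAA in the window and 1.96 in the 9 without. The rest of the 24 members had no window and were left out. TTTGAA was in 11 of 14 mitotic and 1 of 10 S phase members with a window, so motif and role cannot be told apart here.

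Other genes of the cycle were read in 4 further lists. Of 116 genes listed, 112 had a probe and 93 were tested, with 46 above 0 and 47 below 0 in log2 fold change, a median of -0.003 and 0 with an adjusted p under 0.05 in limma. At an unadjusted p under 0.05 there were 2 higher and 6 lower genes of these 93, beside 4.22% and 4.90% of all genes tested. Of the 6 lower genes 4 were in the inhibitor list, with log2 fold changes of -0.70 for Gadd45a, -0.64 for Cables1, -0.60 for Cdkn1c and -0.22 for E2f5, all but Cables1 named after their values were seen. In the same list 1 gene was higher at that threshold, Cdkn1a at 0.80, the largest change in the list. By list, 13 of 30 other S phase genes tested were above 0, as were 22 of 33 other G2 and mitosis genes, 6 of 13 drivers and 5 of 17 inhibitors and pocket proteins. Without ethanol 2 the counts were 5 of 30, 8 of 33, 5 of 13 and 2 of 17, and without ethanol 1 the other S phase genes had 20 of 30. The animal pattern was present in both phase lists: ethanol 2 was the highest ethanol liver for 21 of 26 other S phase genes and 18 of 19 other G2 and mitosis genes above background on all arrays. Control 1 was the highest control for 13 of those 26 and 16 of those 19. Among drivers the counts were 4 and 2 of 11, and among inhibitors 7 and 5 of 11.

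Cables1 encodes an adaptor that restrains CDK activity. It had 69.9, 81.0 and 56.0 in ethanol livers, against 141, 179.7, 153 and 117 in control livers. No ethanol value reached the control range, and the log2 fold change of -0.64 ± 0.11 (SE) had an adjusted p of 0.154 in limma. Cdkn1a, the p21 inhibitor of cyclin-dependent kinases and a target of p53, had 793, 571 and 1189.9 in ethanol livers, against 329, 388, 653 and 445 in control livers. Ethanol 2 lay inside the control range, and the log2 fold change was 0.80 ± 0.23 (SE; limma adjusted p = 0.428), or 0.53 without ethanol 3. Its other probes gave 0.59 and 0.29.

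Dut, which hydrolyses dUTP and so keeps uracil out of DNA, had 70.2, 93.4 and 66.7 in ethanol livers, against 63.0, 57.0, 59.7 and 44.2 in control livers. The groups did not overlap (log2 fold change 0.22 ± 0.09, SE; limma adjusted p = 0.539). Lin54, the DNA-binding subunit of the MuvB complex that recognises the cell cycle homology region, had 332, 366 and 325 in ethanol livers, against 437, 500.5, 372 and 380.0 in control livers. These did not overlap either (log2 fold change -0.25 ± 0.10, SE; limma adjusted p = 0.543). Dut, Lin54 and Cables1 were named for a small unadjusted p, which favours groups that do not overlap. Over all 4 lists, 1 of the 93 genes tested lay wholly higher and 4 wholly lower, beside 4.22% and 4.63% of all genes tested. Tfdp1, the partner of E2F proteins, had a log2 fold change of 0.14 ± 0.09 (SE; limma adjusted p = 0.695) and overlapping groups.

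Kif23, a motor of the central spindle, had 2299, 2365 and 3894 in ethanol livers, against 1751, 2362, 2166 and 2326 in control livers. Ethanol 3 stood apart, and the log2 fold change of 0.35 ± 0.18 (SE; limma adjusted p = 0.615) was 0.10 without that liver, and its other probes gave -0.02 and 0.07. Cdc7, the kinase that fires origins, and Smc2, a condensin subunit, were above background on 2 of 7 arrays each. Their log2 fold changes were -0.22 ± 0.08 and -0.21 ± 0.11 (SE), with adjusted p of 0.517 and 0.612 in limma.

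Markers of cells that divide or reside in liver were set beside the animal pattern. Of 8 lymphocyte markers with a probe, 1 was above background on all 7 arrays (Cd79b) and 4 on none (Cd2, Ms4a1, Nkg7 and Ncr1). The summed level of this list was 150.4, 315 and 146 in ethanol livers, against 189.7, 155, 121 and 141 in control livers, highest in ethanol 2 and control 1. Cd79b (53.8, 105 and 31.8 in ethanol livers, against 75.4, 49.4, 58.5 and 70.1 in control livers) and Cd3d (41.04, 90.2 and 32.2 in ethanol livers, against 52.6, 50.2, 21.9 and 13.1 in control livers) carried that order, and the other probes above background on any array, Cd3e and Cd3g, were highest among controls in control 2 and control 4.

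Of 9 erythroid markers 4 were above background on all arrays and 3 on none (Epb42, Hemgn and Ermap), and their summed level was 1469.5, 1875 and 1951 in ethanol livers, against 1278, 1287, 1289 and 1111 in control livers. That separation came with Alas2, the heme synthesis enzyme of red cell precursors, which had 695, 1197 and 1515 in ethanol livers, against 784, 697, 680.1 and 542 in control livers, overlapping through ethanol 1 (log2 fold change 0.65 ± 0.21, SE; limma adjusted p = 0.465). The other 3 erythroid markers above background on all arrays, Klf1, Tfrc and Slc4a1, had log2 fold changes of 0.09, 0.06 and 0.10. Of 11 Kupffer cell and macrophage markers 10 were above background on all arrays, with sums of 9223, 10093 and 6263 in ethanol livers, against 6813, 6653, 7547 and 6692 in control livers.

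Neutrophil and myeloid precursor markers, with 2 of 7 above background on all arrays and Mpo, Elane and Ngp on none, summed to 837, 688 and 246 in ethanol livers, against 666, 747, 505 and 418 in control livers. The highest livers were ethanol 2 and control 3 for the Kupffer list and ethanol 1 and control 2 for the neutrophil list. Of 5 cholangiocyte markers only Sox9 was above background on all arrays, and Krt19, Epcam and Cftr on none. Sox9 had 248, 425 and 497 in ethanol livers, against 656, 343, 230.3 and 173 in control livers. Hepatocyte markers summed to 151580 to 160330 in ethanol livers, against 128682 to 152520 in control livers. Liver endothelium markers summed to 9078 to 11378 in ethanol livers, against 9003 to 12974 in control livers, and stellate cell markers to 7418 to 8970.4 in ethanol livers, against 8709.6 to 10079 in control livers. Of the 8 lists summed, the lymphocyte list alone was highest in both ethanol 2 and control 1. Its order among controls rested on small margins, with background limits of 21.25 to 25.27 on the control arrays. Cd79b had 75.4 in control 1 and 70.1 in control 4, and Cd3d had 52.6 in control 1 and 50.2 in control 2. The sum also held 4 probes above background on no array. The part of the cells of these 8 lists in the values of the cell cycle genes was not tested.

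**Figure D4:**
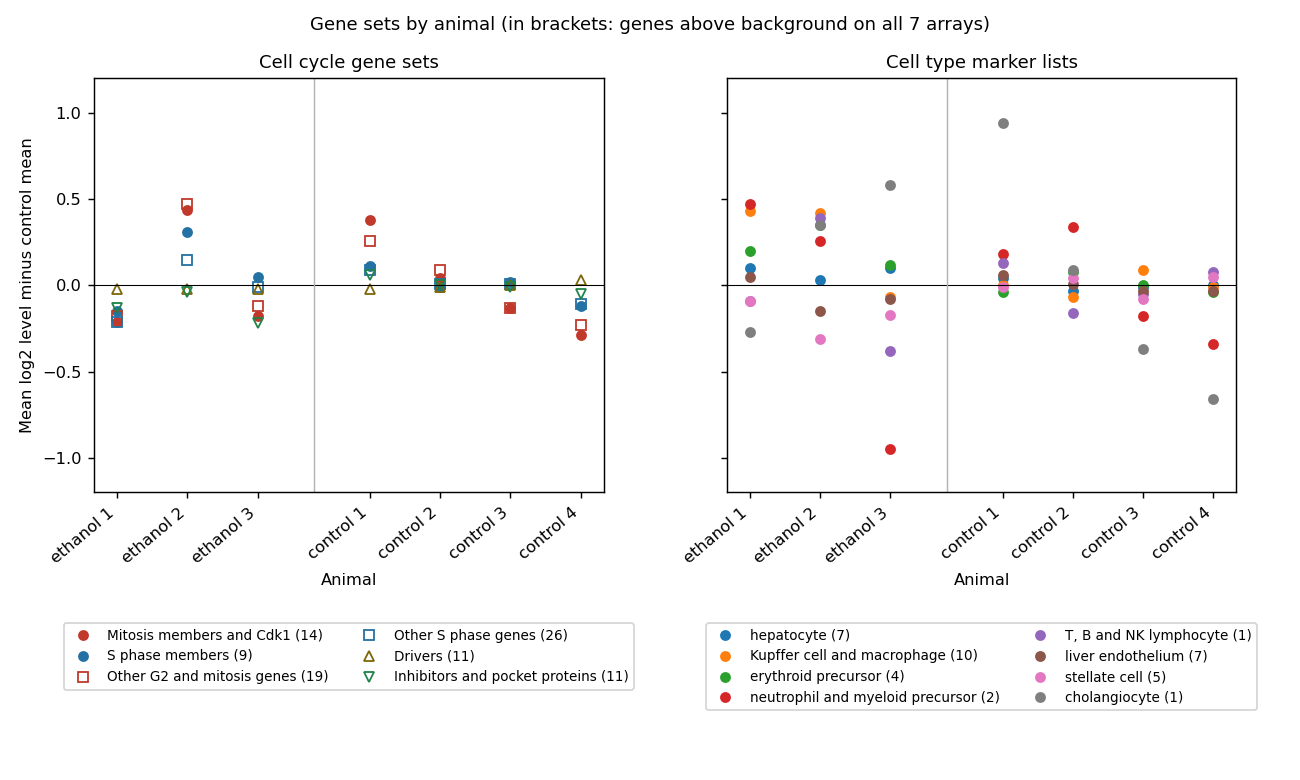
Mean log2 level minus the control mean in each animal for 6 sets of cell cycle genes (left) and 8 lists of cell type markers (right), over the genes above background on all 7 arrays, whose number stands in brackets. Mitotic genes reach 0.44 in ethanol 2 and 0.38 in control 1, while drivers stay within 0.03 of 0 in every animal.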

How the data were processed

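Liver RNA of 3 ethanol and 4 control mice was measured on Illumina arrays, and the group of each sample was taken from its title. The values used are the intensities the authors deposited, one per probe over 45281 probes. GenomeStudio is the tool in the submitters' processing notes. Its version and settings are not given in the sources used here. The deposited intensities go below 0, with medians of 5.13 to 5.94 per array. A second table with 14 columns tied to no sample was not used.

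Intensities were corrected with normexp at an offset of 50, put on the log2 scale and quantile normalised in limma 3.58.1 under R 4.3.3. The 23829 probes that exceeded their array's median on 3 or more arrays were tested with lmFit and eBayes, two-sided, and p-values were adjusted by Benjamini-Hochberg over them, with a threshold of 0.05. The number of arrays, 7, limits the precision. On simulated data of 23829 probes, limma recovered 94% of 100 probes with a log2 change of 1 and 98% of 100 with a change of 2. The noise there was independent between probes, and far more probes were changed than the 5 that passed in the real data, which eases the adjusted threshold. The changed probes were drawn at random, so these shares do not give the chance of a call for the members.

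The platform annotation gave 34885 probes 1 symbol, 18 several and 10378 none, and 34807 were named through the Entrez ID in RefSeq. A probe was above background where it exceeded 3 times the noise estimated from the array's negative values. Animal values follow the rule that named the 10 tested members with the smallest unadjusted p, the member of each role with the highest intensity, those with groups that do not overlap, and Mki67, Top2a and Ccnd1, besides any past the threshold, and the 2 genes with the smallest unadjusted p in each further list. Cdk1, Plk1 and Nusap1 were added after their values were seen. The members and lists were chosen with earlier results of these data known. Alternatives covered background correction, offset, normalization, the filter on dim probes, variance estimation, a replicate block and leaving out each animal.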

Additional observations from a re-analysis of the deposited data

Results flagged for a closer look

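In the control group, 3 of 30 sets of 4 values had an animal set apart from the others by more than Dixon's 95% limit allows, where chance gives about 1 in 20. All 3 were control 1. The sets come from the same 4 livers and many of their genes vary together, so they are not independent and the rate cannot judge their number. Cdk1 was also added after its values were seen. Cdk1 reached 556 there, with 319, 333 and 289 in the other controls. Tk1 reached 1102, with 898, 895 and 896 in the others. Aurkb reached 169.5, with 109, 98.1 and 105 in the others. The ethanol group, with 3 animals, was too small for this check.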

How the results depend on the processing

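No member had an adjusted p under 0.05 in limma under any setting run (1 to 5 had an unadjusted p under 0.05), and neither did any of the other cell cycle genes (6 to 14 unadjusted). The median log2 fold change of the members was -0.04 to 0.04 over the other settings and -0.112 to 0.108 with each animal left out. Across the array, 5 probes passed. That count became 11 without background correction, 3 with an offset of 16, 8 without the filter on dim probes, 1 with trended robust variances and 0 over probes above background on at least 3 arrays (1495 at an unadjusted p under 0.05), and 0 to 27 with an animal left out: 27 without ethanol 1, 2 without ethanol 2, 1 without control 2 and 0 without control 1, 3 or 4. With a replicate block 24 passed, and the log2 fold changes of Cdc20 and Prc1 became -0.06 and -0.09. Same-numbered samples did not deviate together (r = -0.191, 0.085 and 0.203), ethanol 2 went best with control 1 (0.305), and the numbers were not taken as pairs. With an animal left out, the log2 fold change crossed 0, among the genes named by the rule, for Aurkb (-0.03 to 0.39), Cdc20 (-0.36 to 0.39), Mcm4 (-0.17 to 0.13), Mcm6 (-0.31 to 0.03), Prc1 (-0.09 to 0.27) and Top2a (-0.07 to 0.20). Members outside that rule crossed 0 too. Plk1 (0.21) and Aurka (0.06) did so without ethanol 2, where 0 of the 6 mitotic kinase and checkpoint genes were above 0. The cause was not tested. With 7 arrays, differences smaller than the intervals given could not be resolved, and genes below background were not measured.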
